A study of Homo sapiens with 4 samples.

Results

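The 10 imprinted growth genes examined here are IGF2, H19, CDKN1C, MEG3, DLK1, MEST, PEG3, PEG10, SNRPN and GRB10. They were located in the deposited expression table by gene symbol, and each of the 10 had 1 row among its 58365 rows. An imprinted gene is transcribed mainly or only from the copy inherited from one parent, because the 2 copies carry different DNA methylation from the germ line. IGF2, DLK1, MEST, PEG3, PEG10 and SNRPN are classed as paternally expressed, and H19, CDKN1C, MEG3 and GRB10 as maternally expressed, GRB10 in a tissue-dependent way. Several of the paternally expressed genes promote fetal and placental growth, whereas CDKN1C and GRB10 restrain it. The values below measure total RNA of a gene and do not separate the parental copies.

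The libraries came from H1, a human embryonic stem cell (hESC) line, collected on day 2 of differentiation toward blood. All cells were grown in custom mTeSR1 medium with activin A and BMP4, which induce mesoderm. The DMSO group (n = 2) received only the vehicle and the IWP2 group (n = 2) received IWP2, a small molecule that blocks the enzyme Porcupine and so the secretion of Wnt ligands. The comparison asks what the loss of Wnt secretion changes while the cells leave pluripotency. One cell line was used. The labels do not say whether the replicates were separate cultures, and the general statement on independent experiments in the study's methods does not name these libraries, so p-values measure only the spread between these samples.

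Expression values were read as FPKM (fragments scaled to transcript length and to the size of the library) from their form, since no unit was named. FPKM is a unit per length, so that levels of different genes can be set side by side. Differences are IWP2 minus DMSO on the log2(FPKM + 1) scale, which understates changes of weakly expressed genes. They come from limma, and a gene was called at a Benjamini-Hochberg adjusted p under 0.05 over the 14022 genes with a mean of at least 1 FPKM. In all, 2129 genes (15.2%) were called, of which 946 (6.75%) were higher and 1183 (8.44%) lower with IWP2. That balance depended on the scaling, with 1149 higher and 1016 lower after median centring and 1091 and 1059 after quantile normalization. The step size of low values placed the depth of the other libraries at 0.891 (DMSO 2), 1.10 (IWP2 1) and 0.949 (IWP2 2) times that of DMSO 1. Of the marker lists, 7 of 8 tested Wnt target genes and all 9 tested mesoderm markers were lower with IWP2, and the summed mesoderm level was 1132 and 1440 FPKM in the DMSO libraries and 150 and 173 FPKM in the IWP2 libraries. Of 8 pluripotency markers, 5 were higher and 1 was lower, with sums of 1371 and 1191 FPKM without and 2497 and 2502 FPKM with IWP2. POU5F1 carried most of that difference, and the other 7 summed to 620 FPKM in both DMSO libraries and to 643 and 659 FPKM in the IWP2 libraries. That sum hides opposite changes, since SOX2, DPPA4, PRDM14 and ZFP42 were called higher and TDGF1 lower. SOX2 rose from 0.193 and 0.174 FPKM to 35.6 and 36.1 FPKM with IWP2. TDGF1 fell from 203 and 221 FPKM to 103 and 98.6 FPKM. Of 5 tested endoderm markers, 4 were lower. Of 11 tested trophoblast and amnion markers, 5 were higher and 2 lower (sums of 355 and 433 FPKM without and 267 and 293 FPKM with IWP2). HAND1, which is also on the mesoderm list, turned the direction of that sum, since the 13 other listed genes summed to 122 and 111 FPKM without and 167 and 174 FPKM with IWP2. The 5 higher genes of that list were TFAP2A, KRT7, WNT6, GABRP and IGFBP3, and the 2 lower were CDX2 and HAND1. Among its genes under the filter, the placental hormone gene CGA was at or near 0 in every library and XAGE2 was listed at 0. The 2 tested neural markers moved in opposite directions, and of 3 tested blood and endothelium markers 2 were lower. The part of these shifts in the results below was not tested. In such bulk RNA, fewer cells of a type and less RNA per cell cannot be told apart.

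The members covered the whole range of expression in these cells. SNRPN had the highest level in both groups, followed by PEG10, MEST, GRB10, CDKN1C, IGF2 and DLK1, and this order was the same with and without IWP2. SNRPN and PEG10 lay above 99.3% and 98.3% of the rows with any signal, MEST above 94.8% and GRB10 above 91.3%. CDKN1C and IGF2 lay nearer the middle of these rows, above 64.3% and 55.1%, although their levels were low. The DMSO and IWP2 means were 4.47 and 3.47 FPKM for CDKN1C and 1.98 and 0.983 FPKM for IGF2. Among neighbours in the order, SNRPN and PEG10 overlapped between the DMSO libraries. H19, MEG3 and PEG3 were at or near 0 in every library, and their order is not resolved at these levels. Of the members, 6 passed the filter on low values and 4 (DLK1, H19, MEG3 and PEG3) did not.

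**Figure D1:**
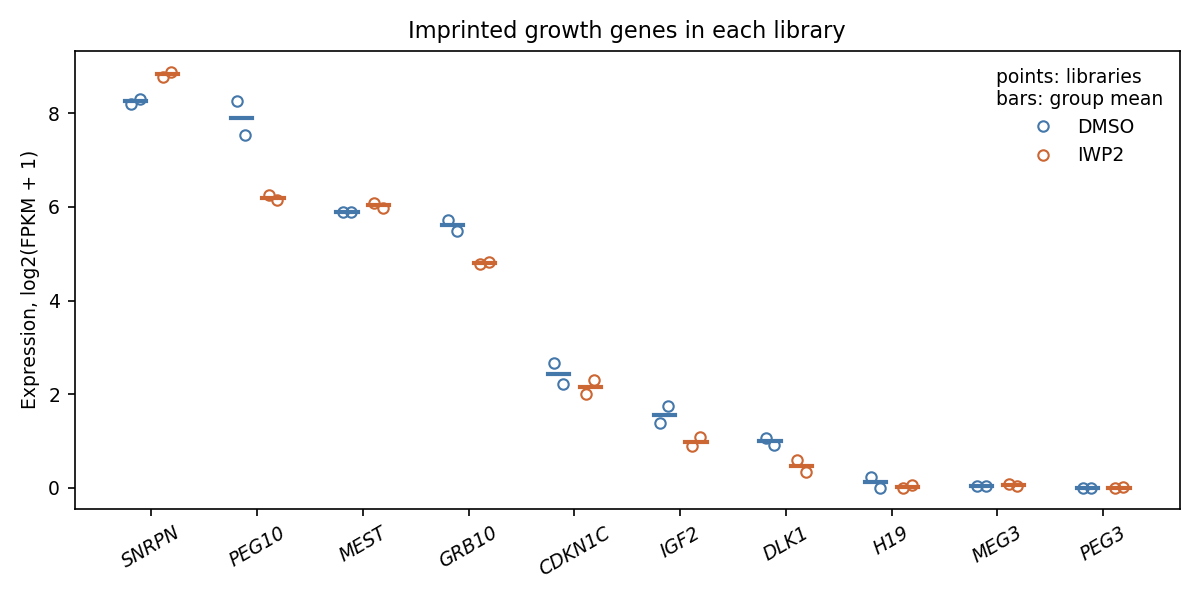
Expression of the 10 imprinted growth genes, as log2(FPKM + 1), with 1 point per library (DMSO blue, IWP2 orange) and a bar at each group mean. SNRPN lies higher with IWP2, PEG10 and GRB10 lie lower, and H19, MEG3 and PEG3 stay close to 0.

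Of the 6 tested members, 3 were called, beside 15.2% of all tested genes. Whether these shares differ was not tested. PEG10 and GRB10 fell and SNRPN rose with IWP2, while IGF2, CDKN1C and MEST did not pass the test. The median log2 difference of the 6 tested members was -0.43, beside -0.02 over all tested genes. The members called lower include 1 paternally and 1 maternally expressed gene.

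PEG10 is a paternally expressed gene derived from a retrotransposon, known for its role in the placenta, and lies on the plus strand of chromosome 7 (GRCh38, 94656325 to 94669695). Its level was 305 and 185 FPKM in the DMSO libraries and 75.1 and 69.5 FPKM in the IWP2 libraries. Both DMSO libraries lay above both IWP2 libraries, although the DMSO libraries differed widely from each other. Groups without overlap were found for 59.8% of all tested genes. The group means were 245 ± 84.5 (SD, n = 2) and 72.3 ± 3.98 FPKM (SD, n = 2), a 3.39-fold lower level with IWP2. On the log2 scale the difference was -1.70 ± 0.24 (SE; adjusted p = 0.0107), larger than that of 97.2% of tested genes. Without DMSO replicate 1, the library with the higher value, the log2 difference of PEG10 was -1.35. With 1 DMSO library left, that fit cannot measure the spread between the DMSO libraries. Without IWP2 replicate 1 or 2 the difference kept its size but missed the threshold (adjusted p = 0.109 and 0.123).

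GRB10, an adaptor protein that binds the insulin and IGF1 receptors and dampens their signalling, lies on the minus strand of chromosome 7 (50590063 to 50793462). It measured 51.4 and 44.0 FPKM in the DMSO libraries and 26.5 and 27.2 FPKM in the IWP2 libraries. The groups did not overlap, as for 59.8% of all tested genes, and the IWP2 libraries lay closer together than the DMSO libraries. The means were 47.7 ± 5.17 and 26.9 ± 0.50 FPKM (SD, n = 2 each), a 1.77-fold lower level with IWP2. The log2 difference was -0.80 ± 0.11 (SE; adjusted p = 0.00947). It missed the threshold without IWP2 replicate 1 (adjusted p = 0.107) and without IWP2 replicate 2 (adjusted p = 0.101).

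SNRPN encodes SmN, a core protein of the spliceosome found mainly in brain and in early embryonic cells, and lies in the Prader-Willi region on the plus strand of chromosome 15 (24823637 to 24978723). It measured 293 and 314 FPKM in the DMSO libraries and 438 and 472 FPKM in the IWP2 libraries. Both IWP2 libraries lay above both DMSO libraries, a lack of overlap shared by 59.8% of all tested genes. The mean rose 1.5-fold, from 303 ± 15.1 to 455 ± 24.0 FPKM (SD, n = 2 each), and the log2 difference was 0.58 ± 0.09 (SE; adjusted p = 0.0132). SNRPN shares transcripts with SNURF, whose locus lies inside its own, and the split of reads between both rows is uncertain. SNURF measured 5.65 and 13.8 FPKM in the DMSO libraries and 10.5 and 5.83 FPKM in the IWP2 libraries, with overlapping groups, and the sum of both rows rose by 0.57 (adjusted p = 0.016). The call was lost whichever library was left out: without DMSO replicate 1 or 2, or IWP2 replicate 1 or 2, the adjusted p was 0.07, 0.056, 0.0908 and 0.119, with log2 differences of 0.53 to 0.64.

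Imprinted promoters are often rich in CG dinucleotides, where methylation can mark the parental copies. Stretches upstream of a GRB10 and an SNRPN start are shown with each CG in capitals. They were chosen by their number of CG. Methylation was not measured, and nothing here shows that these stretches carry the parental mark. Both are RefSeq sequence (GRCh38.p14), 5′ to 3′ on the strand of the gene, cut back to bases outside every annotated exon. The GRB10 stretch is chr7:50792970-50793124 (minus strand, 155 bases, 31 CG) and the SNRPN stretch is chr15:24954737-24954926 (plus strand, 190 bases, 6 CG). Both lie inside the annotated locus of their gene, ahead of one of its several starts.
GRB10: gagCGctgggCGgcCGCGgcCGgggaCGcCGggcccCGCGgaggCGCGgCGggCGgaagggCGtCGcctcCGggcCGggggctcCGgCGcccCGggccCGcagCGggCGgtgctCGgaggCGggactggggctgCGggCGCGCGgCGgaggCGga
SNRPN: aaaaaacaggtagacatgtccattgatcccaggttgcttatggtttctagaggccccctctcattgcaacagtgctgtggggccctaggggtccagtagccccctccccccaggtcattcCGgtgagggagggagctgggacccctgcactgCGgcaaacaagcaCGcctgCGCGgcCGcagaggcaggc
The whole windows around these starts, 250 bases before and 50 after, held 49 CG for GRB10, more than 98.4% of all 35116 windows in the RefSeq table, and 18 CG for SNRPN, more than 55.5%. These were the windows with the most CG of each gene, so both ranks are those of a maximum. The other windows held 3, 4, 24 and 44 CG for GRB10 and 2, 7 and 11 CG for SNRPN. The median over all windows was 14. Windows were found for 5 of the 10 members (GRB10, MEST, H19, MEG3 and SNRPN). The letters CTTTGA, which match part of the element bound by the Wnt-responsive TCF/LEF factors, were searched on both strands and were present in 1 of the 18 windows of these members (a MEST start), beside 12.9% of all windows. Such a match or its absence describes only these windows.

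IGF2, the fetal insulin-like growth factor, lies on the minus strand of chromosome 11 (2129112 to 2141238). It measured 1.61 and 2.34 FPKM in the DMSO libraries and 0.848 and 1.12 FPKM in the IWP2 libraries. The groups did not overlap, as was true of 59.8% of all tested genes, and the level was low throughout. The log2 difference was -0.58 ± 0.21 (SE; 95% interval -1.12 to -0.04), and the adjusted p was 0.145. The row of INS-IGF2, a readthrough of the insulin gene into IGF2, was listed at values indistinguishable from 0, and the antisense IGF2-AS measured 0.0775 and 0.0583 FPKM in the DMSO libraries and 0 in both IWP2 libraries.

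H19, the maternally expressed noncoding RNA that shares its enhancers with IGF2 (chromosome 11, 1995163 to 2001470, minus strand), was listed at 0.178 and 0 FPKM in the DMSO libraries and at 0 and 0.0377 FPKM in the IWP2 libraries. No level can be assigned to H19 in either group from such values. CDKN1C, the cyclin-dependent kinase inhibitor p57 at 2883213 to 2885881 of the same chromosome and strand, measured 5.31 and 3.62 FPKM in the DMSO libraries and 3.03 and 3.90 FPKM in the IWP2 libraries. The groups of CDKN1C overlapped, and its log2 difference was -0.28 ± 0.21 (SE; 95% interval -0.81 to 0.25; adjusted p = 0.427). It ranged from -0.06 without DMSO replicate 1 to -0.51 without DMSO replicate 2 and was called in neither fit.

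DLK1, a transmembrane relative of the Notch ligands, and MEG3, a maternally expressed noncoding RNA, are neighbours on the plus strand of chromosome 14 (100725705 to 100738224 and 100779410 to 100861031). DLK1 measured 1.11 and 0.882 FPKM in the DMSO libraries and 0.516 and 0.260 FPKM in the IWP2 libraries, under the filter. Fitted without the filter, its log2 difference was -0.53 ± 0.15 (SE; adjusted p = 0.211). MEG3 measured 0.0271 and 0.0304 FPKM in the DMSO libraries and 0.0550 and 0.0315 FPKM in the IWP2 libraries. Both genes were thus at most weakly expressed in all 4 libraries.

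MEST, a paternally expressed gene for an enzyme of the hydrolase fold on chromosome 7 (130486171 to 130506296, plus strand), measured 58.0 FPKM in both DMSO libraries and 67.1 and 62.3 FPKM in the IWP2 libraries. The difference of 0.15 ± 0.08 on the log2 scale (SE; 95% interval -0.06 to 0.37) did not pass the test (adjusted p = 0.287). PEG3, a paternally expressed zinc finger gene of chromosome 19 (56810083 to 56840728, minus strand), was listed at 0 in 3 libraries and at 0.00942 FPKM in IWP2 2. ZIM2, which shares its start region with PEG3, was listed at 0 in all 4.

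Of 32 other imprinted genes, 31 were in the table and 19 were tested. With IWP2, 3 were higher, 4 were lower and 12 were not called, with a median log2 difference of -0.08. The share called over all tested genes was 15.2%. CALCR, the calcitonin receptor, fell from 5.43 and 5.19 FPKM to 0.840 and 1.06 FPKM (log2 difference -1.70 ± 0.16, SE; adjusted p = 0.00355). PLAGL1, a zinc finger regulator of growth, fell from 1.84 and 2.09 FPKM to 0.287 and 0.548 FPKM (-1.07 ± 0.21; adjusted p = 0.0277). SGCE, a sarcoglycan, and NNAT, a small membrane protein, fell by smaller amounts (-0.57 ± 0.10 and -0.53 ± 0.09). MAGEL2, a Prader-Willi region gene that acts in ubiquitin ligase complexes, rose from 0.636 and 0.760 FPKM to 2.31 and 2.67 FPKM (1.04 ± 0.18; adjusted p = 0.0209). TFPI2, a protease inhibitor, and ZNF331, a zinc finger gene, rose by 0.62 ± 0.10 and 0.51 ± 0.10. A further 12 genes of the list were under the filter, 4 of them at 0 throughout. Without IWP2 replicate 1 or 2 none of the 7 stayed called by limma, although 9 and 7 of the 19 had an unadjusted p under 0.05; without DMSO replicate 1 or 2, CALCR alone did (adjusted p = 0.0251 and 0.0267). All 7 calls were lost without the filter (0.0538 to 0.0988), and that of ZNF331 also without the trend (0.0533).

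**Figure D2:**
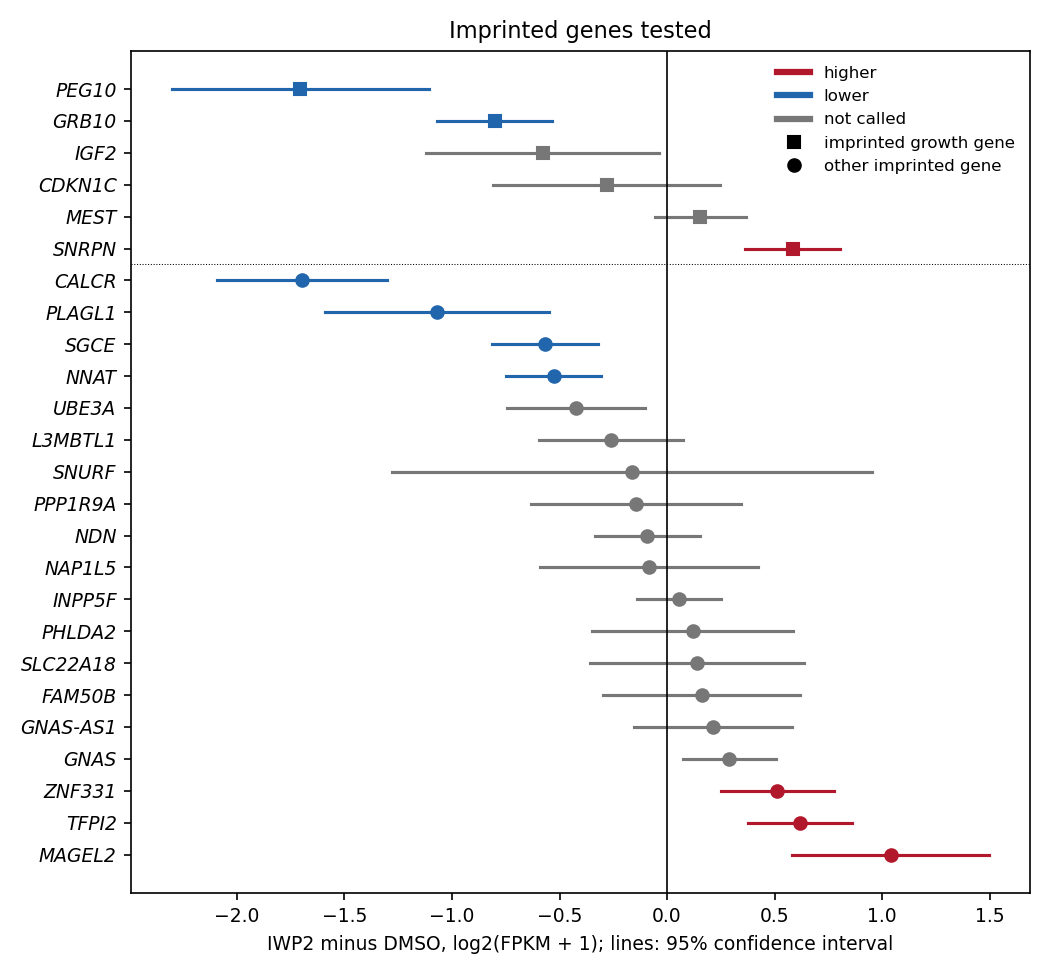
IWP2 minus DMSO difference on the log2(FPKM + 1) scale for the 6 tested imprinted growth genes (squares, above the dotted line) and the 19 tested other imprinted genes (circles), with 95% confidence intervals. Red genes were called higher, blue genes lower and grey genes were not called. PEG10 (-1.70) and CALCR (-1.70) lie farthest to the left and MAGEL2 (1.04) farthest to the right.

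The members called were also set beside the genes around them, since imprinted genes lie in clusters. The window of 1 Mb on either side was chosen after the values of the members were seen. For comparison, 15.2% of all tested genes were called. Around PEG10, 9 other genes were tested, of which 3 were lower (SGCE, CASD1 and GNG11), 1 was higher (TFPI2) and 5 were not called. SGCE starts head to head with PEG10, with 115 bases between both loci, and measured 15.4 and 15.5 FPKM in the DMSO libraries and 10.1 FPKM in both IWP2 libraries. CASD1, 99.3 kb away, had a log2 difference of -1.03 ± 0.11 (SE; adjusted p = 0.00466), and missed the threshold without IWP2 replicate 1 or 2 (0.0736 and 0.069). SGCE, GNG11 and TFPI2 lost their call whichever library was left out. PPP1R9A, the imprinted neighbour on the other side, measured 2.35 and 1.68 FPKM in the DMSO libraries and 1.83 and 1.60 FPKM in the IWP2 libraries, with overlapping groups.

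Around SNRPN, 10 other genes were tested. The noncoding genes SNHG14, which overlaps the SNRPN locus, and PWAR6, downstream of it, were higher. SNHG14 measured 134 and 143 FPKM in the DMSO libraries and 183 and 174 FPKM in the IWP2 libraries (limma adjusted p = 0.0439). PWAR6 had a log2 difference of 0.76 ± 0.13 (SE, adjusted p = 0.0209). PWAR6 starts 53.15 kb past the SNRPN locus, inside the SNHG14 locus (24978583 to 25419462). The 2 higher genes are therefore not separate loci, and reads may be split between them. NPAP1, upstream of SNRPN, was lower (-1.01 ± 0.20, adjusted p = 0.0304) and 7 genes were not called. UBE3A, a ubiquitin ligase gene that SNHG14 overlaps on the opposite strand, measured 33.9 and 40.8 FPKM in the DMSO libraries and 29.2 and 25.9 FPKM in the IWP2 libraries (-0.42 ± 0.13; adjusted p = 0.0904). The library kit did not mark strand, so reads of the overlapping part of SNHG14 and UBE3A cannot be told apart, and reads of SNHG14 and SNRPN may likewise be split. The SNHG14 call was lost with the replicate block (adjusted p = 0.0647), with TPM (0.0853), with TPM without MT- and RN7S rows (0.0517), without the trend (0.101), without the filter (0.107) and whichever library was left out (0.0924 to 0.219). Of the fits that left out 1 library, none called PWAR6 (0.0567 to 0.158), and NPAP1 was called in the one without DMSO replicate 1 (0.0456). The NPAP1 call was also lost with the replicate block (0.0506) and without the filter (0.0943). Near GRB10, only 2 other genes were tested. COBL, an actin nucleator 223 kb away, was higher by 1.98 ± 0.16 (adjusted p = 0.00275), opposite in direction to GRB10, and missed the threshold without IWP2 replicate 1 or 2 (0.0545 and 0.0504), and FIGNL1 was not called (-0.34 ± 0.11; adjusted p = 0.0997).

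**Figure D3:**
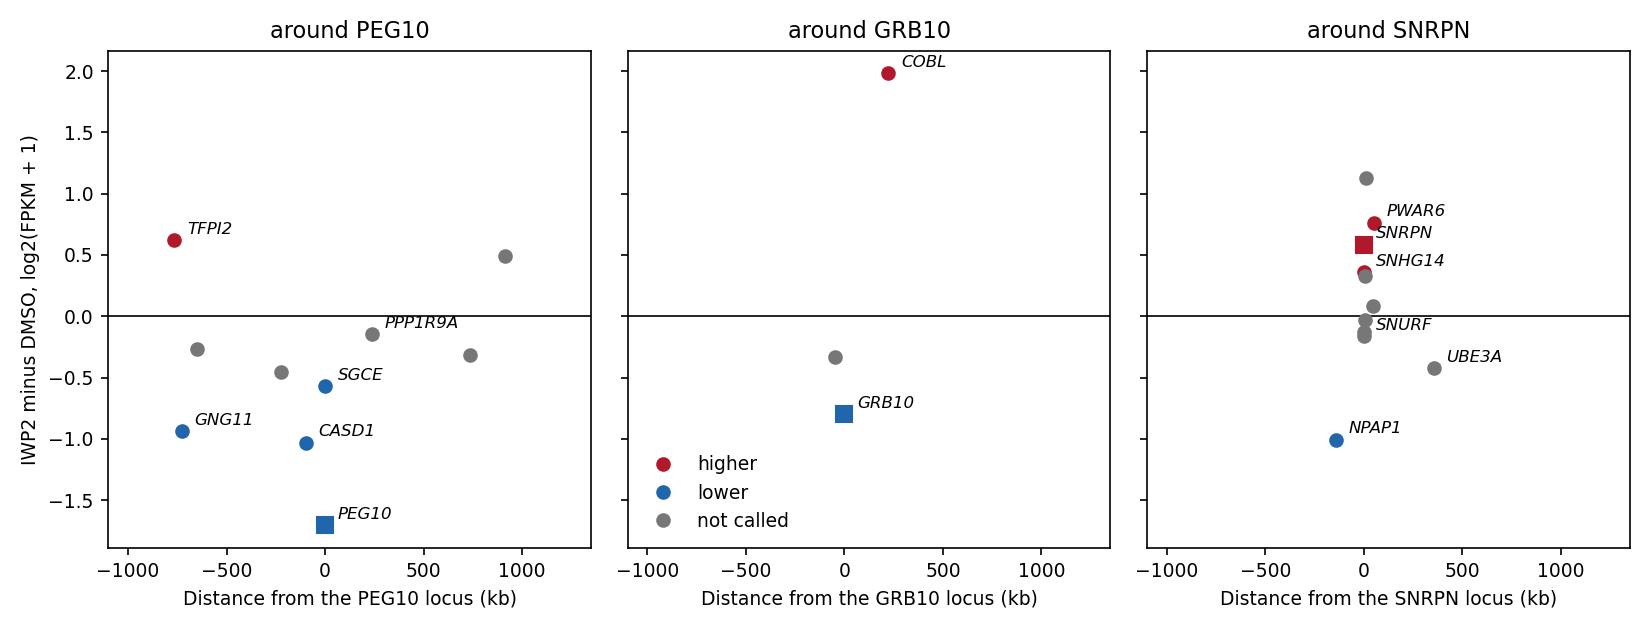
IWP2 minus DMSO difference on the log2(FPKM + 1) scale of every tested gene within 1 Mb of PEG10, GRB10 and SNRPN, against the distance between the loci in kb (0 where they overlap). Squares are the named member, and red, blue and grey stand for higher, lower and not called. SGCE and CASD1 lie below 0 beside PEG10, COBL lies at 1.98 beside GRB10, and genes around SNRPN lie on both sides of 0.

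IGF2 and GRB10 act on the insulin-like growth factor axis. Of 15 tested genes of that axis, 4 were higher with IWP2 (IGF1, IGFBP2, IGFBP3 and IGFBP7), 2 were lower (IGFBP4 and IGFBP6) and 9 were not called, with a median log2 difference of 0.15. Over all tested genes, 15.2% were called. IGF1 itself, a growth factor that binds the same receptor as IGF2, measured 3.23 and 3.09 FPKM in the DMSO libraries and 6.44 and 6.98 FPKM in the IWP2 libraries (0.89 ± 0.13, SE; adjusted p = 0.012). IGFBP3, a secreted IGF carrier, rose by 2.70 ± 0.16 (adjusted p = 0.00107), and IGFBP4, another carrier, fell by 1.75 on the log2 scale (SE 0.12; adjusted p = 0.00135). IGFBP3 is also among the trophoblast and amnion markers called higher, so those counts share a gene. The receptor IGF1R had a difference of 0.56 ± 0.17 (adjusted p = 0.0859), and IGF2R, which clears IGF2, had one of -0.03 ± 0.11. Without IWP2 replicate 1 or 2, or without DMSO replicate 2, 1 of the 4 higher calls was left; without IWP2 replicate 1 or 2, 1 of the 2 lower calls was left. IGFBP3 and IGFBP4 stayed called whichever of the 4 libraries was left out.

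Factors that maintain imprints were looked at next. None of the 6 tested (ZNF445, TRIM28, CTCF, DNMT1, UHRF1 and SETDB1) was called by limma, beside 15.2% of all tested genes, and 0 had an unadjusted p under 0.05. Fitted without the filter, 2 of the 8 factors listed had an unadjusted p under 0.05 in limma, and 0 were called. TRIM28, a corepressor that protects imprinted methylation, measured 363 and 399 FPKM in the DMSO libraries and 377 and 391 FPKM in the IWP2 libraries. ZFP57 was listed at 0 in the DMSO libraries and at 0.172 and 0.114 FPKM in the IWP2 libraries, and DPPA3 measured 0.743 and 0.910 FPKM without and 0.0964 and 0.0565 FPKM with IWP2, both under the filter. Among the other cyclin-dependent kinase inhibitors, relatives of CDKN1C, 1 of 4 tested was called, beside 15.2% of all tested genes. CDKN1B (p27) measured 15 and 15.2 FPKM in the DMSO libraries and 10.6 and 10.9 FPKM in the IWP2 libraries (-0.46 ± 0.10, SE; adjusted p = 0.0359). That call was lost with quantile normalization, median centring and the replicate block (adjusted p = 0.057, 0.0562 and 0.0612), without the filter (0.0748) and whichever library was left out (0.103 to 0.212).

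**Figure D4:**
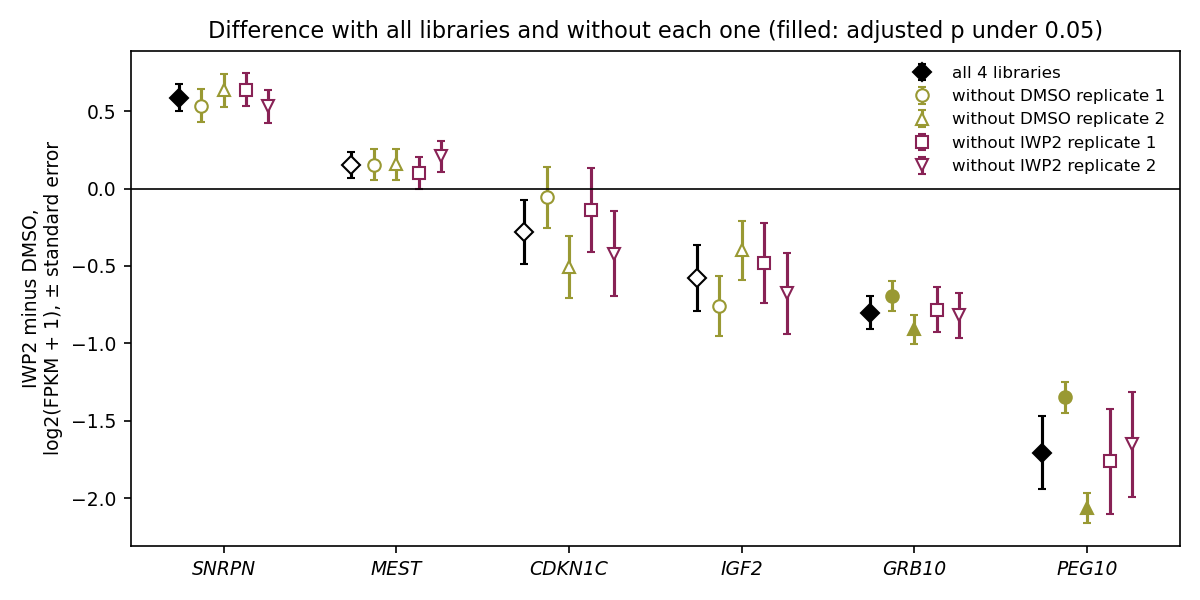
IWP2 minus DMSO difference, log2(FPKM + 1) ± standard error, of the 6 tested imprinted growth genes with all 4 libraries (diamonds) and without each library in turn; filled symbols have an adjusted p under 0.05. Every difference kept its sign, PEG10 ranged from -2.06 to -1.35, and no symbol of SNRPN other than that of all 4 libraries is filled.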

How the data were processed

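RNA from 2 DMSO and 2 IWP2 libraries of H1-derived cells was sequenced by the study with a TruSeq RNA kit, which does not mark strand. The authors deposited 1 table of FPKM values, 1 per gene and library, with replicates not pooled. Its header names no unit, and FPKM was read from the form of the values. The submitters' notes list BWA, Bowtie, RSEM and hg19, with no role or version, whereas the loci match GENCODE 29 on GRCh38. Read totals are not given in the sources used here. Columns marked as without IWP2 were taken as the DMSO group and named by the number in the column, and columns with IWP2 matched sample titles.

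Values were transformed to log2(FPKM + 1), genes with a mean under 1 FPKM over the 4 libraries were left out, and groups were compared with limma 3.58.1 in R 4.3.3 (intensity trend, no block, Benjamini-Hochberg). With 2 against 2 libraries an exact permutation test cannot go below p = 0.333 and was not used. A symbol on several rows was read from its row of highest mean. The text names all members, the genes of each fixed list that were called (up to 8) and genes overlapping a member; UBE3A, CDKN1A, CGA, XAGE2, IGF1R, IGF2R, TRIM28, PPP1R9A, ZFP57, DPPA3 and the neighbours of members were named after their values were seen. Members and lists were chosen with earlier results of these data known. The fit was tested on simulated data. One result of the search for similar patterns is not reported here. Promoter windows were from RefSeq (GRCh38.p14).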

Additional observations from a re-analysis of the deposited data

How the results depend on the processing

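No tested member changed sign under any alternative run. PEG10 and GRB10 were called in 11 of 14 alternatives and SNRPN in 10 of 15, and IGF2, CDKN1C and MEST in none of theirs. Without the filter on low values, where 28917 genes were tested, 118 genes were called higher and 263 lower. No member was then called by limma (0 higher, 0 lower), although 4 had an unadjusted p under 0.05, and the adjusted p was 0.103 for PEG10, 0.0724 for GRB10 and 0.078 for SNRPN. In that setting 0 other imprinted genes were called higher and 0 lower (9 with an unadjusted p under 0.05), 1 IGF axis gene was called higher and 1 lower, and 0 cyclin-dependent kinase inhibitors were called lower (2 with an unadjusted p under 0.05). With a filter at a mean of 5 FPKM, which removed PLAGL1 and CALCR from the test, 2 other imprinted genes were called lower. Cyclin-dependent kinase inhibitors called lower fell to 0 with quantile normalization, median centring and the replicate block (2, 2 and 1 with an unadjusted p under 0.05).

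Leaving out 1 library at a time gave 58 to 657 genes called higher and 180 to 718 called lower, members called 0 higher and 0 to 2 lower, other imprinted genes 0 higher and 0 to 1 lower, IGF axis genes 1 to 4 higher and 1 to 2 lower, and cyclin-dependent kinase inhibitors 0 to 1 lower. The lone library is then assumed to vary like the other group. Same-numbered libraries deviated together only weakly (correlation 0.15 over tested genes), and no label says that a number marks a shared culture. The share of FPKM from MT- rows was 9.57% in DMSO 1 and 8.95% in IWP2 1, beside 6.25% in DMSO 2 and 6.92% in IWP2 2. Whether same-numbered libraries shared a preparation was not tested. A fit with the replicate block called 862 genes higher and 1065 lower and the same 3 members. Rescaling after removal of MT- and RN7S rows, the sum of SNRPN and SNURF, and marker sums without their highest gene, were added after seeing the data. No scaling moved the median of all genes by over 0.1. Depth per library is unknown, so no counting interval is given for weak members (H19, MEG3, PEG3). Count models were not run, since the table holds no counts.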

Other observations

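For each called member, the tested genes with the most similar pattern were those at the smallest Euclidean distance over the 4 libraries between centred log2(FPKM + 1) values. PEG10 was nearest to DUSP6, a phosphatase induced by ERK signalling (distance 0.11), and FLRT3, a transmembrane adhesion protein (0.115). DUSP6 measured 42.4 and 25.1 FPKM in the DMSO libraries and 9.19 and 8.09 FPKM in the IWP2 libraries, with the same higher value in DMSO 1 as PEG10. GRB10 was nearest to TNFRSF11B (0.0294), BNIP3 (0.0389) and CRMP1 (0.0444), and SNRPN to TLE1 (0.0238), LRRCC1 (0.0276) and CNOT6L (0.0294). With 4 libraries in 2 groups many genes share such a pattern, and these distances are a description only.

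CDKN1A, the p21 member of the kinase inhibitor list, measured 81.8 FPKM in DMSO 1 and 22.8 FPKM in DMSO 2, beside 17.2 and 19.3 FPKM in the IWP2 libraries, and was not called (adjusted p = 0.228). Without DMSO replicate 2, the lower of the DMSO libraries, the log2 difference was -2.11, and without DMSO replicate 1 it was -0.31. With 1 DMSO library left, neither fit can measure the wide spread between the DMSO libraries.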
